A study of Mus musculus with 67 samples.

Results

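Sap30 and 9 genes whose proteins work with it in the SIN3 histone deacetylase complex were followed through mouse preimplantation development, in embryos exposed to light and in control embryos. The 10 genes are Sap30, Hdac1, Hdac2, Sin3a, Sin3b, Rbbp4, Rbbp7, Suds3, Sap18 and Arid4b. They were found by symbol, and all 10 were among the 26414 genes of the deposited table. Sap30 was listed because it was higher in light than in control 4-cell embryos, so its values at that stage are a description, with no test. The other 9, its partners, were listed with it.

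The libraries were made by SMART-seq2, which copies polyadenylated RNA from single cells, from embryos of C57BL/6 mice. Light embryos spent 6 h of the 2-cell stage under 5000 lx and returned to dark culture, and control embryos stayed in the dark. The study's methods describe cells picked by hand from dissociated embryos, while the labels number embryos. There were 7 control and 6 light 2-cell libraries, 6 and 8 4-cell libraries, 4 and 8 8-cell libraries, 13 and 6 morula libraries, and 3 and 6 blastocyst libraries.

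The SIN3 complex is a co-repressor that is brought to promoters by sequence-specific factors, where its catalytic subunits remove acetyl groups from histone tails. Sin3a and Sin3b encode alternative scaffolds, Hdac1 and Hdac2 deacetylases, and Rbbp4 and Rbbp7 histone-binding proteins that also serve in other chromatin complexes. Sap30, Suds3, Sap18 and Arid4b encode accessory subunits. The mouse embryo begins its own transcription around the 2-cell stage, while RNA stored in the oocyte is removed.

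Depth lay between 836011 and 8551674 reads per library, of which 54.0% to 89.3% fell on CT010467.1 and Gm42418, which hold ribosomal RNA sequence, leaving 318177 to 2867034 other reads. By median correlation, 4 of 6 control 4-cell, 12 of 13 control morula and 1 of 7 control 2-cell libraries were closer to the light than to the control libraries of their stage. Y-linked genes reached 10 CPM in 2 of 6 light and 3 of 7 control 2-cell libraries, and in 8 of 8 light and 4 of 6 control 4-cell libraries. They did so in 3 of 8 light and 0 of 4 control 8-cell libraries. In morulae this held in 1 of 6 light and 0 of 13 control libraries, and in blastocysts in 6 of 6 light and 0 of 3 control libraries. The part of embryo sex in the results was not tested, and in blastocysts it cannot be told apart from that of light. Nothing states that libraries came from separate embryos, and p-values therefore measure the spread between these libraries only. Cumulus cell and sperm markers summed to at most 54.6 and 10.4 normalised read counts, over the 6 of 10 and 6 of 8 listed genes that were found. Has2, Ptx3, Cd44 and Amh of the first list and Spata18 and Smcp of the second were not found. In control and light blastocysts the markers of trophectoderm, the outer layer, summed to 452 to 7264 and 2834 to 7223, and those of primitive endoderm to 252 to 540.3 and 291 to 439. The primitive endoderm sum was not particular to blastocysts, at 318 to 553 in control 2-cell and 218 to 965 in control morula libraries. Its marker Foxa2 was at 0 in all blastocyst libraries.

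The promoters of Sap30 and of its paralog Sap30l, which encodes a closely related subunit, are shown because this pair differed in opposite directions between light and control 2-cell embryos. They are the 250 bases before the gene start in RefSeq (GRCm38.p6), at chr8:57487861-57488110 on the minus strand and chr11:57801387-57801636 on the plus strand. The deposited table has no coordinates, and the submitters' processing notes name mm9. Capitals mark motif matches.
Sap30: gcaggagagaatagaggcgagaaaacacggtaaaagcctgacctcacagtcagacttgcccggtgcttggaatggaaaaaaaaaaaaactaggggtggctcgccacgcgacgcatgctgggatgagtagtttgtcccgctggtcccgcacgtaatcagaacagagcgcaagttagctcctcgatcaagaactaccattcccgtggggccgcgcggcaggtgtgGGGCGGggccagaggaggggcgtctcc
Sap30l: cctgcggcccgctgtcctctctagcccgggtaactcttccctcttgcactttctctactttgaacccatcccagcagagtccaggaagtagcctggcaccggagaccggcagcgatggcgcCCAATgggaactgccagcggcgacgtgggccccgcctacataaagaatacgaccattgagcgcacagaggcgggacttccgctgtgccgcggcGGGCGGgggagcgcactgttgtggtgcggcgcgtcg

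Both strands were searched for 6 short motifs in 27025 promoters of this length. The share that held GGGCGG was 32.9%, the share with CCAAT was 34.5% and the share with the E-box CACGTG was 6.05%. The cyclic AMP element TGACGTCA was found in 1.62% of promoters, the TATA-like TATAA in 23.5% and the E2F-like TTTCGCGC in 0.255%. Sap30 held 1 GGGCGG, starting at -27 from the gene start, and no other match. Sap30l held 1 GGGCGG at -36 and 1 CCAAT at -129. There were 18 CpG sites in the Sap30 window and 24 in that of Sap30l.

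Sap30 had its highest light mean at the 2-cell stage, and control embryos had high means at the 2-cell and 8-cell stages with a low point between them. Levels are normalised read counts, which are reads divided by the authors' size factor of the library. Control means were 175 ± 162 (SD, n = 7) at the 2-cell stage, 7.56 ± 7.49 (SD, n = 6) at the 4-cell stage, 151 ± 44.4 (SD, n = 4) at the 8-cell stage, 38.0 ± 49.1 (SD, n = 13) in the morula and 11.3 ± 7.15 (SD, n = 3) in the blastocyst. Light means at the same stages were 354 ± 82.2 (SD, n = 6), 97.7 ± 28.5 (SD, n = 8), 76.3 ± 54.5 (SD, n = 8), 58.0 ± 27.6 (SD, n = 6) and 2.81 ± 1.22 (SD, n = 6). The control 2-cell mean was 118 without library 12, below the 8-cell mean. In CPM outside ribosomal RNA the control 2-cell, 4-cell and 8-cell means were 119, 8.15 and 237, and the light means 285, 99.04 and 112. The order of the control 2-cell and 8-cell means, and that of the light 4-cell and 8-cell means, thus turned with the scaling. Ordered by mean with the deposited scaling, the groups ran from light 2-cell through control 2-cell, control 8-cell, light 4-cell, light 8-cell, light morula, control morula, control blastocyst and control 4-cell to light blastocyst. Each group's range overlapped that of the next.

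**Figure D1:**
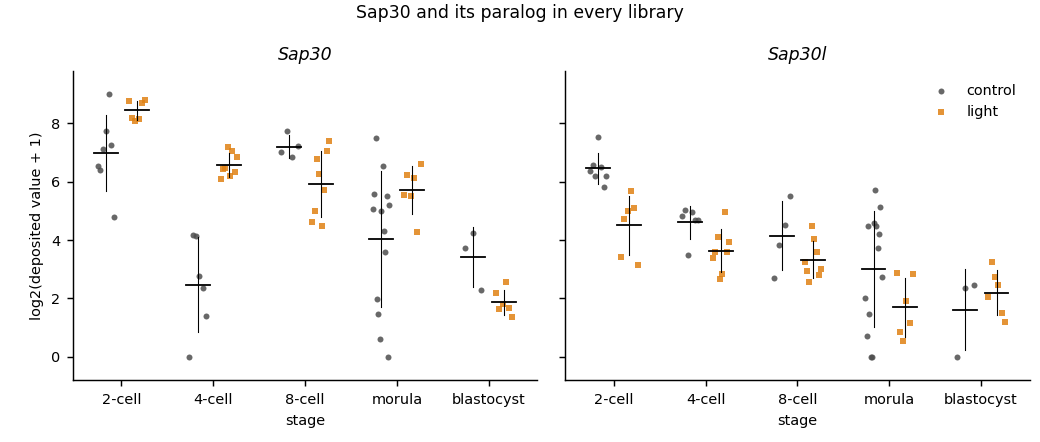
Level of Sap30 (left) and Sap30l (right) in each library, as log2 of the deposited normalised read count plus 1, by stage. Grey circles are control and orange squares light libraries, horizontal bars are means and vertical lines 1 SD on this scale. The control 4-cell libraries of Sap30 (0 to 17.0 normalised read counts) lie below all light ones (67.2 to 144).

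At the 2-cell stage Sap30 was higher in light embryos. Control libraries held 26.7 to 518 (median 137) and light libraries 270.0 to 443 (median 349.5) normalised read counts. Control library 12 lay above all light libraries, and the other 6 control libraries lay below them. The log2 fold change on the log2(value + 1) scale was 1.46 (SE 0.42, adjusted p of 0.0226 in limma, Benjamini-Hochberg adjustment over all genes tested). Genes with an adjusted p under 0.05 that changed at least 2-fold are called, and 10.5% of all genes were called at this stage. The call was lost without light library 9 (adjusted p of 0.0512 in limma) and with no filter on low values (0.0602), and over 6 other settings the adjusted p ranged from 0.0103 to 0.0602.

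Sap30l was lower in light 2-cell embryos. Control libraries held 55.6 to 186 (median 81.3) and light libraries 7.77 to 50.3 (median 27.9) normalised read counts, with no overlap, and the log2 fold change was -1.95 (SE 0.48, adjusted p of 0.00782 in limma). The log2 ratio of Sap30 to Sap30l reads within a library, which does not depend on library scaling, was 0.53 ± 1.25 (SD, n = 7) in control and 3.94 ± 1.26 (n = 6) in light embryos. A two-sided exact permutation test of this difference of 3.42 gave p = 0.00175, or 0.0332 adjusted over 19 ratios. With single libraries left out the adjusted p of the exact test reached 0.0759. The call was lost without any 1 of 8 of the 13 libraries compared (control 8, 9, 10, 11, 17 and 24, light 9 and 16). The sum of 10 oocyte maternal markers, among them the zona pellucida gene Zp3, was 2639 to 5763 in these control and 781 to 2304 in these light libraries. Its part in the differences of Sap30 and Sap30l was not tested.

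At the 4-cell stage Sap30 stood at 0, 1.64, 4.10, 5.87, 16.7 and 17.0 normalised read counts in the 6 control libraries, from 0 to 44 reads each. The 8 light libraries held 67.2 to 144 (median 86.1), from 40 to 407 reads each. The groups did not overlap, and the log2 difference of 4.10, or 3.97 above the median of all genes, is the one by which the gene was chosen. Of all genes 1.45% were called at this stage, and 0.56% had groups without overlap. Markers of the transient 2-cell programme, such as the Zscan4 genes, summed to 14.7 to 102 in control and 43.4 to 475 in light 4-cell embryos, and their part was not tested.

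At the later stages the difference in Sap30 did not pass the test. The 4 control 8-cell libraries held 113, 128, 149 and 213 normalised read counts and the 8 light libraries 21.2 to 166 (median 63.2), with overlap. Light minus control was -1.29 on the log2 scale (SE 0.48, adjusted p of 0.0895 in limma), where 9.21% of all genes were called. It passed with libraries scaled by the median ratio over all genes (-1.46, adjusted p of 0.0483 in limma) and without light library 12 (0.0451), and over 5 other settings the adjusted p ranged from 0.0483 to 0.175. The transient 2-cell markers summed to 136 to 575 in control and 3.80 to 197 in light 8-cell embryos, and their part was not tested.

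Control morulae spread widely in Sap30, at 0 to 177 (median 30.9) normalised read counts, and light morulae held 18.2 to 96.9 (median 56.8), within the control range. Their log2 difference was 1.69 (SE 0.83, adjusted p of 0.330 in limma), with 1.18% of all genes called. The 3 control blastocysts held 3.85, 12.1 and 18.1 and the 6 light ones 1.60 to 4.95 (median 2.35), with overlap. The difference there was -1.54 (SE 0.73, adjusted p of 0.208 in limma), or -0.90 relative to the median of all genes, with 5.34% of all genes called. In morulae the log2 ratio of Sap30 to Sap30l reads was 1.22 ± 2.72 (SD) in control and 4.45 ± 1.43 in light embryos. This difference of 3.23 did not pass (adjusted p of 0.0569, exact permutation test). Neither did that of -0.44 at the 8-cell stage (0.852) or of -2.84 in the blastocyst (0.226).

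Whether the light effect differed among stages was tested in the 53 libraries outside the 4-cell stage. The limma F-test of the interaction passed for Sap30 (F = 4.77, adjusted p of 0.0473) and Rbbp4 (F = 5.10, adjusted p of 0.0374), and for none of the other 8 members, while 10.6% of all genes passed. With 1 library left out, Sap30 passed in 19 of 53 fits and Rbbp4 in 44. Neither passed with median ratio scaling, where the adjusted p in limma was 0.0601 for Sap30 and 0.445 for Rbbp4, or with a pseudocount of 0.1 (0.0948 and 0.0568), and Sap30 was also lost with no filter (0.0646). Over 4 other settings the range was 0.0453 to 0.0948 for Sap30 and 0.0275 to 0.445 for Rbbp4.

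Between neighbouring stages, Sap30 fell from the light morula, with 18.2 to 96.9 normalised read counts, to the light blastocyst, with 1.60 to 4.95, without overlap. The change was -3.84 on the log2 scale (SE 0.55, adjusted p of 5.07e-06 in limma), or -3.39 relative to the median of all genes, and it passed in 5 of 5 other settings and in 12 of 12 fits with a library left out. Of all genes 20.7% were called in this step. From the 8-cell stage to the morula in control embryos the change was -3.18 (SE 1.00, adjusted p of 0.0317 in limma), with 14.3% of all genes called. This call was lost without any 1 of the 4 control 8-cell libraries, and with a pseudocount of 0.1, no filter, edgeR and DESeq2, with adjusted p from 0.0167 to 0.0813 over 6 settings. The step from 8-cell to morula in light embryos (-0.20, SE 0.46, adjusted p of 0.829 in limma) and that from morula to blastocyst in control embryos (-0.61, SE 1.22, adjusted p of 0.788 in limma) did not pass. Steps to and from the 4-cell stage use the libraries that chose Sap30, and the log2 differences were -4.51 and 4.73 in control and -1.86 and -0.66 in light embryos, the last of them positive with edgeR (0.19) and DESeq2 (0.22).

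Of the deacetylase genes, Hdac1 was highest at the 4-cell stage, at 645 ± 203 (SD, n = 6) normalised read counts in control and 648 ± 196 (SD, n = 8) in light embryos. Control 2-cell libraries held 46.2 to 379 (median 169) and light 2-cell libraries 169 to 478 (median 350.0), and both overlapped the 4-cell libraries. From the 2-cell stage Hdac1 rose by 2.10 on the log2 scale in control (SE 0.43, adjusted p of 0.000427 in limma) and by 1.04 in light embryos (SE 0.27, adjusted p of 0.00254 in limma), the latter lost without any 1 of 4 libraries (light 2-cell 14 or 15, light 4-cell 9 or 11). In this step 46.1% and 36.5% of all genes were called, and the median of all genes tested was -0.72 and -0.56.

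From the 4-cell to the 8-cell stage Hdac1 fell by 1.74 in control (SE 0.37, adjusted p of 0.00675 in limma) and by 1.05 in light embryos (SE 0.20, adjusted p of 0.000724 in limma), where 6.31% and 10.6% of all genes were called. Both calls were lost with median ratio scaling (-0.95 and -0.45), edgeR and DESeq2, and that in light embryos also without light 4-cell library 9 or 11 or light 8-cell library 6 or 10. In light embryos these 3 settings called Hdac2 and Rbbp7 instead. From morula to blastocyst in light embryos Hdac1 fell by 1.85 (SE 0.34, adjusted p of 0.000157 in limma), and the stages, with means of 259 ± 99.4 and 69.2 ± 18.7, did not overlap.

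Hdac2 was lower at the 4-cell than at the 2-cell stage. Control 2-cell libraries held 44.8 to 121 (median 65.3) normalised read counts and the 6 control 4-cell libraries 0, 4.26, 5.87, 26.3, 26.6 and 49.0, with overlap by 1 library. This was a log2 fold change of -2.76 (SE 0.72, adjusted p of 0.00369 in limma) that was lost with edgeR (-1.65, adjusted p of 0.0692). Light libraries held 65.8 to 300.3 (median 149) at the 2-cell and 25.9 to 107 (median 54.9) at the 4-cell stage, with overlap, a change of -1.37 (SE 0.38, adjusted p of 0.00491 in limma) that fell under the fold threshold with median ratio scaling (-0.98). The log2 ratio of Hdac1 to Hdac2 reads went from 1.01 ± 1.05 in control 2-cell to 6.20 ± 2.78 in 4-cell and 1.99 ± 0.61 in 8-cell libraries, without overlap at either step. By the exact permutation test the first step had an adjusted p of 0.00816 over 14 ratios, at the smallest p possible, and the second 0.050, which is not under the threshold. In the blastocyst the ratio was -0.67 ± 1.18 in control and -0.17 ± 0.55 in light embryos.

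Between light and control 2-cell embryos neither deacetylase gene was called by limma. Light minus control was 1.08 for Hdac1 (SE 0.40, adjusted p of 0.0774 in limma) and 0.99 for Hdac2 (SE 0.40, adjusted p of 0.102 in limma), whose groups overlapped. Hdac2 was called by edgeR and DESeq2, and Hdac1 by limma when control library 17, control library 24 or light library 15 was left out. At the 4-cell stage, given as a description, Hdac2 differed by 2.38 and Hdac1 by 0.02, and the log2 ratio of Hdac1 to Hdac2 was 2.70 to 10.83 in control and 2.44 to 5.05 in light libraries. The 10.83 is that of control library 2, which had 0 Hdac2 reads, so its size depends on the 0.5 reads added.

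The scaffold gene Sin3a was highest at the 2-cell stage. Control libraries held 881 to 2099 (median 1033) normalised read counts there and 75.8 to 302 (median 166) at the 4-cell stage. Light libraries held 578 to 1313 (median 766) and 171 to 294 (median 209). Neither group's stages overlapped. On the log2 scale Sin3a fell by 2.83 in control (SE 0.34, adjusted p of 9.18e-07 in limma) and by 1.91 in light embryos (SE 0.23, adjusted p of 1.95e-07 in limma), and both calls held in each setting tried. In light embryos, with 59.0 to 165 at the 8-cell stage and 13.0 to 51.8 in the morula, it again fell by 1.90 (SE 0.35, adjusted p of 0.000487 in limma), with 11.8% of all genes called. The same step in control embryos was -0.74 (SE 0.51, adjusted p of 0.370 in limma), and the 2 steps were not tested against each other. Exons of Sin3a overlap Man2c1os and 2700012I20Rik on the other strand.

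Sin3b, the other scaffold gene, had group means, with the deposited scaling, from 14.8 ± 7.97 in light 8-cell embryos to 71.4 ± 26.8 normalised read counts in control blastocysts, and limma called it in no comparison. From light morula to light blastocyst, median ratio scaling, edgeR and DESeq2 called both Sin3b and Sin3a higher, at 1.65 and 1.23 with the first, against 0.94 and 0.52 with the deposited scaling. The log2 ratio of Sin3a to Sin3b reads was 5.21 ± 1.06 in control 2-cell and -1.15 to 1.65 in control blastocyst libraries. Light libraries had 4.68 ± 0.93 and -0.40 ± 1.07 at these stages. No neighbouring control stages passed the exact permutation test of this ratio, with adjusted p from 0.309 to 0.874.

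Rbbp4 was the partner called between light and control 2-cell embryos. The 6 light libraries, at 142 to 237 (median 220.0) normalised read counts, were all above the 7 control libraries, at 23.0 to 109.5 (median 75.4). Rbbp4 differed by 1.64 on the log2 scale (SE 0.37, adjusted p of 0.00372 in limma). The call held in 6 of 6 other settings, with adjusted p of at most 0.00701, and in 13 of 13 fits with a library left out, and 4.15% of all genes had groups without overlap. Exons of Rbbp4 overlap Sync and Gm26722 on the other strand, and the counting is not stated to use strand. In control embryos, with 111 to 269 at the 4-cell stage, Rbbp4 rose without overlap by 1.40 (SE 0.42, adjusted p of 0.010 in limma), and the same step in light embryos was -0.53 (SE 0.31, adjusted p of 0.177 in limma). Light morulae held 95.7 to 344 and light blastocysts 34.5 to 68.5, without overlap, and Rbbp4 fell by 1.97 (SE 0.37, adjusted p of 0.000188 in limma).

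Rbbp7 had means of 609.7 ± 296 normalised read counts in light 2-cell embryos and 213 ± 94.4 in light blastocysts, but of 481 and 526.3 CPM outside ribosomal RNA, where the order turned. Light 2-cell libraries held 418 to 1199.6 and light 4-cell libraries 167 to 374, without overlap, and Rbbp7 fell by 1.23 (SE 0.26, adjusted p of 0.000377 in limma), and by 1.19 from light morula to light blastocyst (SE 0.32, adjusted p of 0.00658 in limma). Median ratio scaling (-0.84 and -0.46), edgeR and DESeq2 lost both calls. Its exons overlap Txlng on the other strand. The log2 ratio of Rbbp4 to Rbbp7 reads rose from -2.47 ± 0.69 in control 2-cell to -0.92 ± 0.69 in 4-cell libraries (adjusted p of 0.00816, exact permutation test) and fell to -2.79 ± 0.26 in 8-cell libraries (0.0444). The second step was lost without any 1 of 8 libraries. In light 2-cell embryos the ratio was -1.48 ± 0.50, and the difference of 0.99 from control did not pass (adjusted p of 0.0569, exact permutation test).

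Among the accessory subunits, Suds3 stood at 70.9 to 95.3 normalised read counts in control 8-cell embryos and at 0.525 to 56.5 (median 26.3) in control morulae, without overlap. Suds3 changed by -2.30 on the log2 scale (SE 0.75, adjusted p of 0.0393 in limma), and it was lost without any 1 of 7 libraries (control 8-cell 1 to 4, control morula 9, 14 and 18) and with a pseudocount of 0.1, no filter and edgeR. From light morula to light blastocyst, at 0 to 14.9, it fell by 2.36 (SE 0.63, adjusted p of 0.00655 in limma), which edgeR and DESeq2 did not call. At the 8-cell stage light libraries held 23.3 to 71.7, a difference of -0.94 from control (SE 0.37, adjusted p of 0.109 in limma) that median ratio scaling and DESeq2 called.

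Arid4b stood at 121 to 253 normalised read counts in light 2-cell and 38.7 to 80.1 in light 4-cell embryos, without overlap. The change of -1.51 on the log2 scale (SE 0.32, adjusted p of 0.000360 in limma) was called in 6 of 6 other settings. Control 8-cell libraries held 19.7 to 79.3 and control morulae 0 to 26.1 (median 3.94), where 4 of 13 had no read. That change of -3.09 (SE 0.99, adjusted p of 0.0357 in limma) was lost without any 1 of the 4 control 8-cell libraries, and with a pseudocount of 0.1, no filter, edgeR and DESeq2. Exons of Arid4b overlap Ggps1 on the other strand.

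Sap18, whose product is also found in splicing-linked complexes, stood at 39.5 to 135 normalised read counts in control 8-cell embryos and 101 to 332 (median 186) in control morulae, with overlap. The increase of 1.23 (SE 0.36, adjusted p of 0.0194 in limma) was lost without control 8-cell library 2 or 3, and was under the fold threshold with median ratio scaling and DESeq2. The 3 control blastocysts held 29.5, 55.3 and 72.6, without overlap with the morulae, a change of -1.85 (SE 0.39, adjusted p of 0.00206 in limma), with 11.9% of all genes called. In light embryos this step was -1.69 (SE 0.42, adjusted p of 0.00345 in limma), lost with median ratio scaling (adjusted p of 0.0502 in limma). Sap18 has a near-identical copy, Sap18b, and its exons overlap Ska3 on the other strand, so its values are uncertain.

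**Figure D2:**
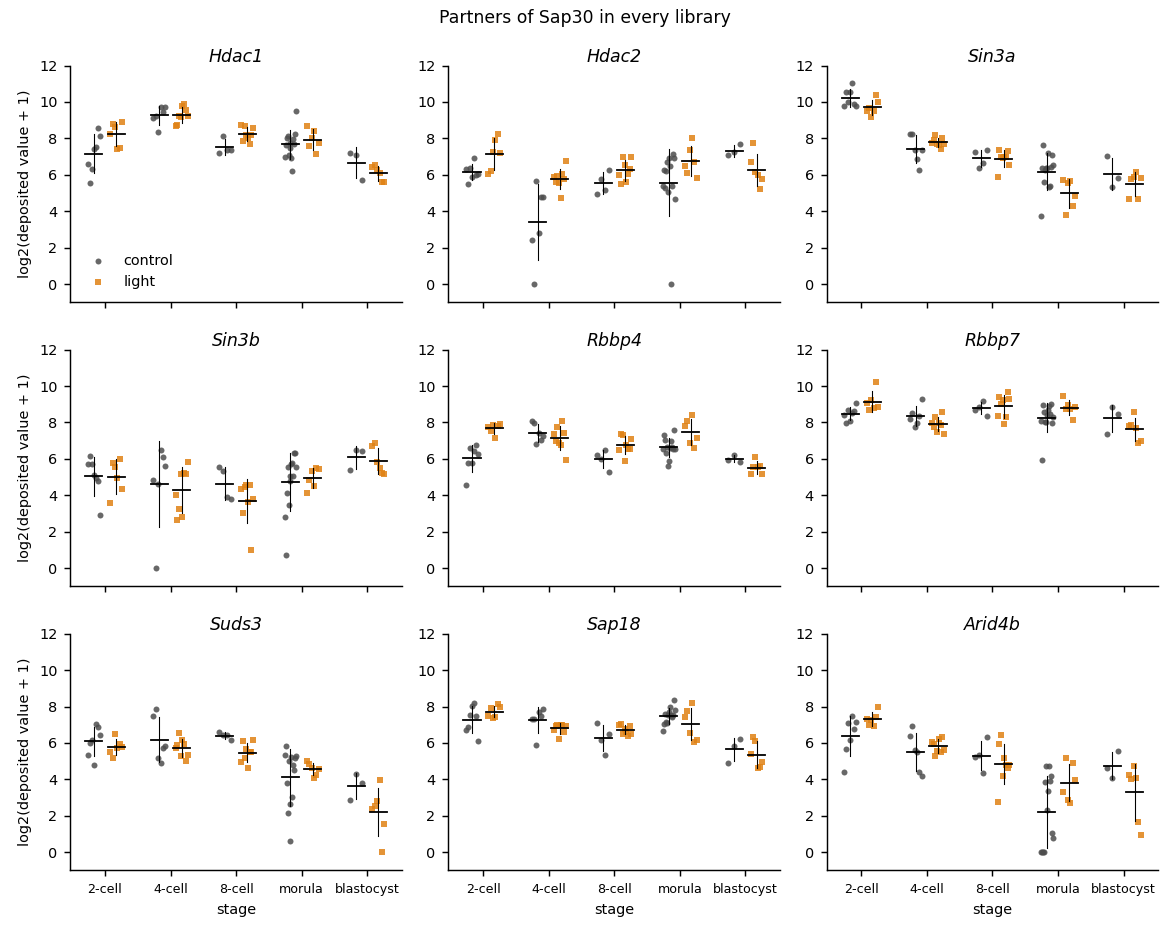
Levels of the 9 partners in each library, as log2 of the deposited normalised read count plus 1, by stage. Grey circles are control and orange squares light libraries, horizontal bars are means and vertical lines 1 SD on this scale. Sin3a is highest at the 2-cell stage and Hdac1 at the 4-cell stage in both groups, and the light 2-cell libraries of Rbbp4 (142 to 237 normalised read counts) stand above the control ones (23.0 to 109.5).

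Of the 10 members, 2 were called between light and control 2-cell embryos, both higher in light, where 5.53% of all genes were called higher. The median log2 fold change of the members was 0.80, against 0.00 for all genes. At the 4-cell stage 0 of the 9 partners were called by limma, edgeR or DESeq2, where limma called 1.45% of all genes. There limma called Hdac2 when control library 3 or 6 was left out. At the 8-cell, morula and blastocyst stages limma called 0 of 10 members, against 9.21%, 1.18% and 5.34% of all genes. At each of them edgeR called 0, and DESeq2 called Suds3 at the 8-cell stage and 0 at the others. The members' medians at these stages were 0.03, 0.51 and -0.59, against 0.16, 0.10 and -0.64 for all genes. All 10 were negative in the blastocyst with the deposited scaling, and 6 of them were positive with median ratio scaling.

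Between neighbouring control stages, 4 of the 9 partners were called from the 2-cell to the 4-cell stage (2 higher, 2 lower, against 13.8% and 32.3% of all genes). In the next step 1 was called, against 6.31% of all genes in either direction. From 8-cell to morula 3 were called (1 higher, 2 lower, against 6.84% and 7.49%), and from morula to blastocyst 1, against 11.9% in either direction. In light embryos 5 were called in the first step (1 higher, 4 lower, against 7.43% and 29%). The next 2 steps had 1 each, against 10.6% and 11.8% of all genes in either direction. The last step had 5, all lower, where 15.7% of all genes were called lower. These comparisons share libraries with each other and with those between light and control.

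**Figure D3:**
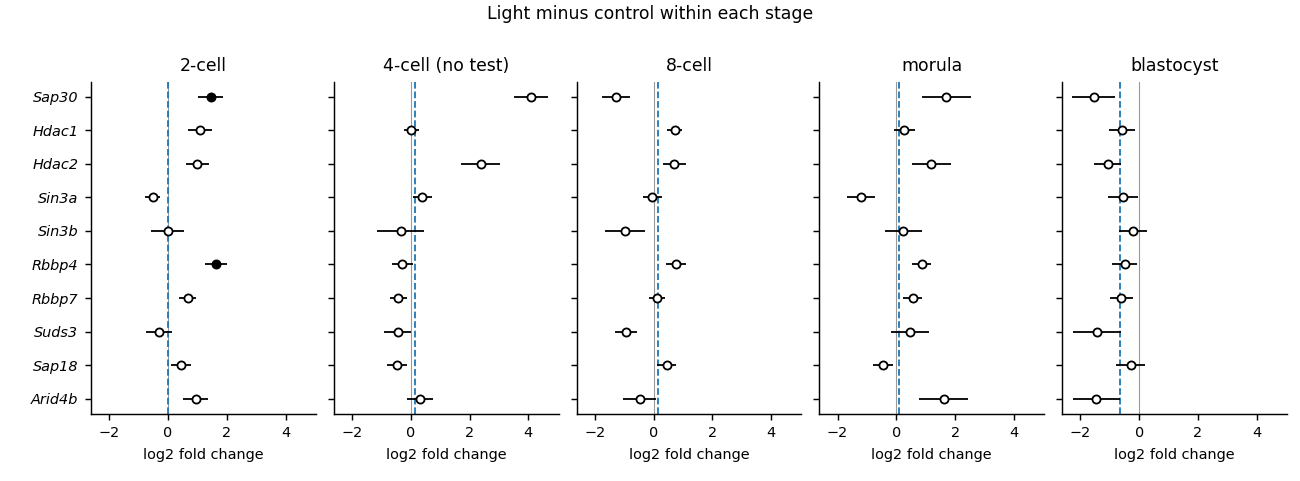
Log2 fold change of light minus control for the 10 members at each stage, with whiskers of 1 SE. Filled circles were called by limma, the 4-cell values are shown as a description, and the dashed line is the median of all genes. Sap30 (1.46) and Rbbp4 (1.64) are filled at the 2-cell stage, and the blastocyst values lie around a median of all genes of -0.64.

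**Figure D4:**
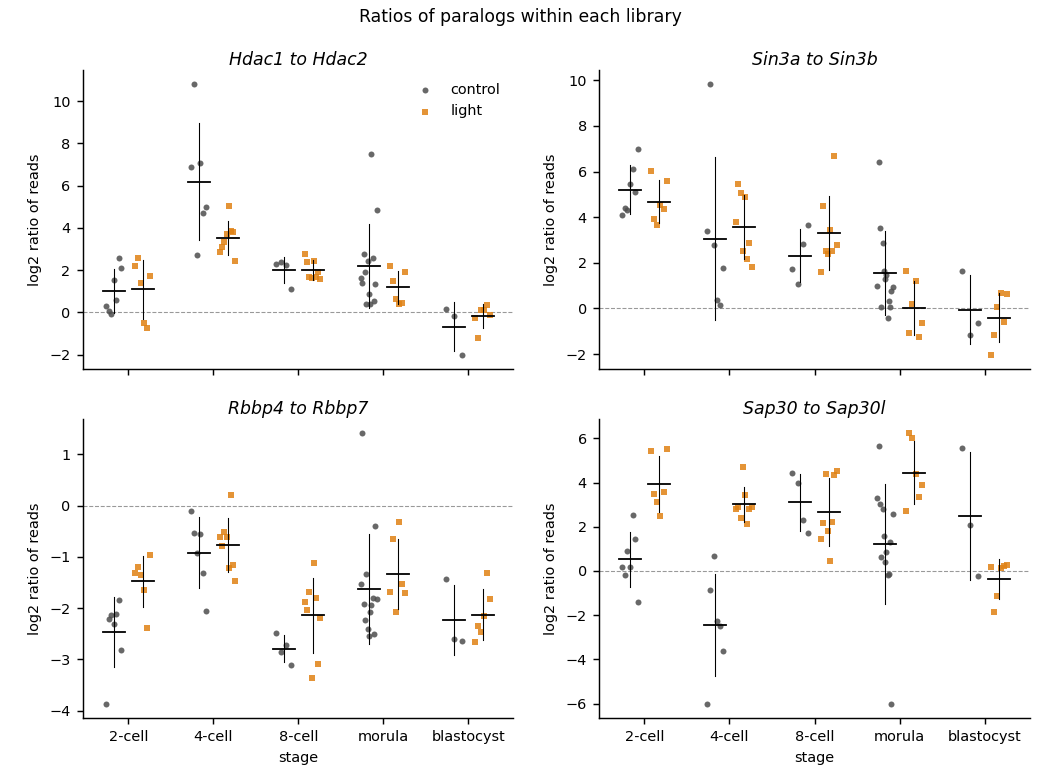
Log2 ratio of the reads of paired genes within each library, with 0.5 reads added to each count, by stage. Grey circles are control and orange squares light libraries, horizontal bars are means, vertical lines 1 SD, and the dashed line marks equal reads. The mean ratio of Hdac1 to Hdac2 is highest in control 4-cell embryos (6.20), where 1 library had 0 Hdac2 reads. That of Sap30 to Sap30l is 3.94 in light against 0.53 in control 2-cell embryos.

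Levels of different genes were compared per kilobase of exon in GENCODE M21, whose build differs from that of the authors. On this scale control 2-cell embryos held Sin3a at 233, Sap30 at 148, Rbbp7 at 126 and Hdac1 at 51.1 per kb, with Sin3b lowest at 5.22. In light 2-cell embryos Sap30 came first at 301 ± 69.8 (SD) per kb, before Rbbp7 at 209.6 ± 102 and Sin3a at 159.8 ± 49.5, with overlapping ranges. Lengths covered all annotated exons, from 1178 bases for Sap30 to 16965 for Arid4b, so the order depends on them. Before division by length Sin3a (860) and Rbbp7 (609.7) stood above Sap30 (354) in these embryos. Control 4-cell embryos held Hdac1 at 187, Rbbp7 at 119 and Sap30 at 6.42 per kb, and light 4-cell embryos 188, 85.2 and 82.9. In blastocysts Rbbp7 was first in both groups, at 112 and 73.1 per kb, and Sap30 was at 9.63 and 2.38.

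Of 17 other SIN3 subunits and associated proteins, 2 were called between light and control 2-cell embryos, both lower in light, against 10.5% of all genes. These were Sap30l and Foxk2, a forkhead factor, at 511 ± 124 in control and 189 ± 44.4 normalised read counts in light libraries (-1.42, SE 0.27, adjusted p of 0.000790 in limma). In the blastocyst 3 were called, all lower in light, against 5.34% of all genes. Tet1, a DNA dioxygenase gene, stood at 356 ± 255 in control and 43.8 ± 13.9 in light (-2.66, SE 0.54, adjusted p of 0.010 in limma), and was lost without control blastocyst 2. Ogt, whose product adds O-GlcNAc to proteins, stood at 373 ± 31.7 and 71.8 ± 32.4 (-2.47, SE 0.40, adjusted p of 0.00227 in limma). Morf4l2 (-1.44, SE 0.38, adjusted p of 0.0284 in limma) was lost with no filter, median ratio scaling, edgeR and DESeq2, and without control blastocyst 1 or 2 or light blastocyst 26. Inner cell mass markers summed to 289 to 1828 in these control and 144 to 207 in these light blastocysts, and their part was not tested. Y-linked genes reached 10 CPM in 6 of 6 of these light and 0 of 3 of these control libraries. Embryo sex and light thus cannot be told apart here. Of the SIN3 recruiting factors only Mga was called, of 13 tested at the 8-cell stage, where 9.21% of all genes were called. Mga (1.25, SE 0.38, adjusted p of 0.0390 in limma) was lost with no filter, with median ratio scaling and without any 1 of 9 of the 12 libraries.

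Hdac1, Hdac2, Rbbp4 and Rbbp7 also belong to the NuRD complex, of which 5 of 10 other subunits were called at the 2-cell stage, 1 higher and 4 lower in light, against 10.5% of all genes. Gatad2b, among the 4, was not called with no filter, edgeR or DESeq2. Mta2 was higher, at 265 ± 158 in control and 1024 ± 418 normalised read counts in light libraries (2.14, SE 0.36, adjusted p of 0.000294 in limma), and its paralog Mta1 (-2.46, SE 0.67, adjusted p of 0.0160 in limma) and the remodeller gene Chd3 (-3.05, SE 0.71, adjusted p of 0.00498 in limma) were lower. The oocyte maternal markers, at a median sum of 3835 in control and 1223 in light, differed between these same libraries, and their part in the 2-cell differences of any gene was not tested. Of 15 histone acetyltransferases, which act opposite to deacetylases, 4 were called at the 2-cell stage (2 higher, 2 lower) and 3 at the 8-cell stage (1 higher, 2 lower), against 10.5% and 9.21% of all genes. The higher calls were Hat1 and Gtf3c4 at the 2-cell and Hat1 at the 8-cell stage. With no filter all of them were lost (adjusted p of 0.0673, 0.0574 and 0.0839 in limma), as was Hat1 with a pseudocount of 0.1 at the 2-cell and with edgeR at the 8-cell stage. Ncoa1 was lower at the 2-cell stage (-1.99, SE 0.41, adjusted p of 0.00183 in limma). At the 8-cell stage Crebbp stood at 308 ± 28.8 in control and 118 ± 21.5 in light (-1.39, SE 0.25, adjusted p of 0.000944 in limma) and Ep300 at 483 ± 48.3 and 200.3 ± 42.7 (-1.29, SE 0.23, adjusted p of 0.000977 in limma), both without overlap. Crebbp was also among those called lower at the 2-cell stage (-1.24, adjusted p of 0.000316 in limma). In morulae it was the 1 of 15 acetyltransferases called (-1.43, SE 0.32, adjusted p of 0.0210 in limma), against 1.18% of all genes. The morula call was lost without light morula 9 or 12.

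For the CoREST complex, which shares Hdac1 and Hdac2, 2 of 10 genes were called at the 8-cell stage, Rcor1 (-1.64, SE 0.40, adjusted p of 0.0101 in limma) and Kdm1a (-1.47, SE 0.43, adjusted p of 0.0298 in limma), both lower in light, the latter lost without control library 1 or 4, against 9.21% of all genes. Of the other deacetylases, Sirt7 (2.52, SE 0.64, adjusted p of 0.00897 in limma) and Sirt6 (1.91, SE 0.62, adjusted p of 0.0433 in limma) were called higher of 15 at the 2-cell stage (10.5% of all genes), where Sirt6 was lost with a pseudocount of 0.1, no filter and any 1 of 8 libraries left out. Hdac4 (-2.63) and Sirt1 (-1.65) were called lower of 12 at the 8-cell stage (9.21% of all genes). Both were lost without control 8-cell library 2, and Hdac4 also without control library 3 or light library 10 and with a pseudocount of 0.1, no filter and edgeR. In the blastocyst 1 of 9 CoREST genes (Zmym3), 1 of 13 other deacetylases (Hdac5) and 3 of 15 acetyltransferases (Kat2b, Taf1 and Kat6b) were called lower, against 5.34% of all genes. None of these was called with median ratio scaling, edgeR or DESeq2. At the 2-cell, 8-cell and morula stages limma called 0 of 4 MiDAC genes, and in the blastocyst 0 of 2. At each of these stages it called 0 of 3 ASAP and PSAP partners of Sap18. Of all genes 10.5%, 9.21%, 1.18% and 5.34% were called at the 2-cell, 8-cell, morula and blastocyst stages.

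The genes with the log2 level most like that of Sap30 over the 67 libraries were Ptp4a1 (Pearson r of 0.72), Foxi3 (0.70), Yipf4 (0.70), Nlrp9c (0.70) and Zfp622 (0.70). Over the 10 group means they were Gpatch2l (0.97), Rex2 (0.97), Glrx2 (0.95), Tchh (0.95) and Clec10a (0.93). Points share libraries, depth and stage, so these values are a description. Among the partners, Suds3 (r of 0.53, rank 857 of 11020 genes) and Sin3a (0.52, rank 896) were most like Sap30 over the libraries, and Sin3b (-0.21) was least.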

How the data were processed

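Polyadenylated RNA of single cells was measured by SMART-seq2 in 67 libraries, 33 control and 34 light. The submitters' processing notes name HISAT2, HTSeq 0.9.1 and mm9. The authors deposited 1 table of normalised values, used here as a signal: read counts per gene, scaled by a size factor for each library. The study's methods describe RPKM, but the deposited values are not divided by length. Whole reads were recovered from them for 99.97% to 100% of values within 0.01 reads, with a non-whole value in 11 genes. Columns of other samples numbered 0.

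Groups were taken from the labels. Values were compared as log2(value + 1) with limma 3.58.1 in R 4.3.3, in a separate fit for each comparison over genes above 1 in at least 3 libraries, with Benjamini-Hochberg adjustment. Fold changes on this scale understate those of low genes. A call needs an adjusted p under 0.05 and at least a 2-fold change. Ratios of paralogs were compared by two-sided exact permutation tests, adjusted over 19 comparisons of light with control and 14 of neighbouring control stages. Alternatives were a pseudocount of 0.1, no filter, median ratio scaling, edgeR 4.0.16 and DESeq2 1.42.0 on recovered reads, each library left out, and the replicate number as a block. On recovered reads edgeR called 2162 genes at the 2-cell stage. Scripts were tested on simulated data. Python 3.11.15, numpy 2.4.6, pandas 2.3.3, scipy 1.17.1 and matplotlib 3.10.9 were also used.

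The members, the gene lists and the tests were chosen with earlier results of these data known. All members were named, as were up to 3 called genes of each list in a comparison by fold change, Sap30l, and the 5 genes most like Sap30. Gatad2b was named after its values were seen. A result of the lists is not reported here. Libraries of the same group differed by more than sampling noise (at least 7.39 chi-square per degree of freedom for the closest pair).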

Additional observations from a re-analysis of the deposited data

Results flagged for a closer look

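In groups of 4 to 10 libraries, a library was picked out where its gap to the nearest other value was large for the range of the group by Dixon's criterion. This held in 10 of 88 groups of the members and Sap30l, where chance gives about 1 in 20 if values are normally distributed. The values were taken without logs and their distribution was not tested, so the share cannot be read as an excess. Sap30 stood at 518 normalised read counts in control 2-cell library 12, above the next value of 212.6, and the mean of the other 6 control libraries was 117.6. Rbbp7 stood at 1199.6 in light 2-cell library 15, against a next value of 601.1, and at 630.4 in control 4-cell library 6. Hdac1 stood at 282 in control 8-cell library 2. Hdac2 stood at 107 in light 4-cell library 14 and at 215 in light blastocyst library 15. Rbbp4 stood at 68.5 in light blastocyst library 23. Sap30l stood at 186 in control 2-cell library 11 and at 30.3 in light 4-cell library 11, both high, and at 10.3 in control 4-cell library 3, which was low.

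The light effect differed between the 2-cell, 8-cell, morula and blastocyst stages by the limma F-test of the interaction for Sap30 (F = 4.77) and for Rbbp4 (F = 5.10). The test passed for 10.6% of all genes. Mean levels of both genes were higher in light at the 2-cell and morula stages and lower in light in the blastocyst. At the 8-cell stage light and control means were 76.3 and 151 normalised read counts for Sap30, and 112 and 65.8 for Rbbp4. Neither gene passed with a pseudocount of 0.1 or with median ratio scaling. With single libraries left out, Sap30 passed in 19 of 53 fits and Rbbp4 in 44.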

How the results depend on the processing

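Of the comparisons of members and paralog ratios, 63 of 80 counts under other settings stayed within 1.5 times the first. With no filter, 1 member was called at the 2-cell stage in place of 2. At the 8-cell stage median ratio scaling called 2 and DESeq2 1 in place of 0. From the control 4-cell to the 8-cell stage median ratio scaling and edgeR called 0 in place of 1. From control 8-cell to morula a pseudocount of 0.1, no filter, edgeR and DESeq2 called 1 each in place of 4. Median ratio scaling called 3 in place of 5 from the light 2-cell to the 4-cell stage. From the light 4-cell to the 8-cell stage median ratio scaling, edgeR and DESeq2 called 2 in place of 1. The interaction passed for 0 members with a pseudocount of 0.1 or median ratio scaling, and for 1 with no filter, in place of 2. With 2 reads added, 5 paralog ratios passed between control stages in place of 3. The cause was not tested. With each library left out, the counts between light and control ranged from 1 to 3 at the 2-cell stage, from 0 to 1 at the 4-cell and 8-cell stages, and stayed at 0 in the morula and blastocyst. They ranged from 1 to 2 from control 4-cell to 8-cell, 0 to 4 from control 8-cell to morula, 4 to 5 from light 2-cell to 4-cell, 0 to 2 from light 4-cell to 8-cell and 0 to 2 in the interaction. Paralog ratios passed 0 to 4 times between light and control and 2 to 5 times between control stages. The log2 change of Sap30 from light 8-cell to morula, -0.20, ranged from -0.40 to 0.093. It changed sign without light 8-cell library 12 (0.01) or light morula library 9 (0.093).

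With the replicate number as a block, Sap30 at the 2-cell stage had a log2 fold change of 1.47 (adjusted p of 0.0238 in limma), and no count of members changed. Deviations of libraries with the same number had correlations from -0.087 to 0.069, so the number does not pair libraries. No paired analysis was possible for light against control at the 8-cell and blastocyst stages, control 2-cell to 4-cell and light morula to blastocyst because fewer than 2 numbers were shared.

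Counts over all genes moved by more than 1.5 times in 6 comparisons. Between light and control 4-cell embryos, 218 genes became 53 with no filter, 136 with a pseudocount of 0.1 and 754 with DESeq2. In the morula 179 became 277 with median ratio scaling and 395 with DESeq2. In the blastocyst 680 became 286 with a pseudocount of 0.1, 264 with no filter, 284 with median ratio scaling and 151 with edgeR. From control 4-cell to 8-cell 847 became 421 with no filter, 272 with median ratio scaling and 187 with edgeR. From control morula to blastocyst 1775 became 1138 with edgeR. From light 4-cell to 8-cell 1602 became 384, 247 and 544 with median ratio scaling, edgeR and DESeq2. Median ratio scaling moved the genes called higher and lower from 819 and 457 to 649 and 631 at the 8-cell stage, from 54 and 125 to 138 and 139 in the morula and from 45 and 635 to 132 and 152 in the blastocyst. In control steps it moved them from 153 and 694 to 200 and 72 (4-cell to 8-cell), from 1024 and 1121 to 892 and 1545 (8-cell to morula) and from 1010 and 765 to 1544 and 721 (morula to blastocyst), and in light steps from 1283 and 5010 to 2004 and 4078 (2-cell to 4-cell), from 94 and 1508 to 161 and 223, from 665 and 1040 to 837 and 869 and from 681 and 2131 to 1349 and 826 (the next 3). Sap30 counts of 0 to 44 reads in control 4-cell embryos limit the precision of its level there.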

Other observations

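The symbols Sap25, Fam60a, Mideas and Znf541, which were on the lists of related genes, were not found among the genes of the deposited table. Sinhcaf, Elmsan1 and Zfp541, which are other symbols for Fam60a, Mideas and Znf541, were found there and were analysed under these names.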
